A study of Sus scrofa with 12 samples.

Results

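The DEAD and DEAH box RNA helicases are described here across the maturation of porcine oocytes. They were taken as every gene whose pig symbol starts with DDX or DHX followed by a digit. The rule found 47 genes, 31 with a DDX and 16 with a DHX symbol, among 31908 Ensembl identifiers, of which 15029 had a symbol. Of the 47, 38 averaged 1 FPKM or more across all 12 libraries and were tested with the 7013 genes of the whole table that did so. DDX17, DDX19A, DDX10, DDX43 and DDX53 had no matching identifier and were not analysed here. DDX58 carries the symbol RIGI in the reference, is thus no member by the rule, and is given beside the sensors of foreign RNA.

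The study followed oocytes from prepubertal gilts through in vitro maturation and profiled their RNA at 0h, 22h and 46h, with 4 libraries for each stage. The cumulus-oocyte complexes came from antral follicles, were cultured in medium with follicular fluid, EGF, PMSG and HCG, and were stripped of cumulus cells before lysis. The 0h oocytes had not been cultured and held a germinal vesicle, the description places the middle stage before metaphase I, and it names 46h as metaphase II. The share of oocytes at that stage in these pools was not measured here. No genotype, and no drug outside the culture medium, separated the groups. Culture time, exposure to the medium with its follicular fluid, EGF, PMSG and HCG, and meiotic stage go together and cannot be told apart. Each library is a pool of oocytes, and nothing says that the replicates came from separate cultures, so the p-values measure the spread between these libraries, which may be technical. In such pools, fewer oocytes holding a transcript and less of it per oocyte cannot be told apart. The RNA was copied from an oligo-dT primer by the SMART-Seq2 method, so that a transcript's amount and the state of its poly(A) tail cannot be told apart either.

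RNA helicases of this superfamily use ATP to open short RNA duplexes or to strip proteins from RNA. The family takes its names from motif II, an ATP-binding stretch that reads Asp-Glu-Ala-Asp in DEAD box proteins and Asp-Glu-Ala-His in DEAH box proteins. Members act at most steps of an RNA's life, from splicing, export and ribosome assembly to translation, storage and decay. The fully grown oocyte makes little new RNA once meiosis resumes, and it relies on stored mRNAs whose translation and decay are set by proteins bound to them, the helicases DDX4 and DDX6 among them.

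Motif II was found in the coding sequence of 46 of the 47 members, with DHX32 the exception. It read DEAD in 24, DEAH in 9, DEVH in 5, DECD in 2, DEIH in 2, DEVD in 2, DECH in 1 and DESD in 1. The stretches below, from RefSeq on Sscrofa11.1, show the paralog pairs that the results turn on, with DDX4 for the canonical motif. Capitals mark the 4 codons of motif II, and all 5 stretches lie within a coding exon.
DDX4, chr16:34968087-34968116, plus strand: ttagttttgGATGAAGCTGATcgcatgctg
DDX39A, chr2:64842508-64842537, plus strand: ttcgtgttgGATGAGTGTGACaagatgctg
DDX39B, chr7:23664177-23664206, minus strand: tttatcttgGATGAATGTGACaagatgctt
DDX21, chr14:72048796-72048825, plus strand: gttgtcctgGATGAAGTTGACcagatgttg
DDX50, chr14:72004068-72004097, plus strand: gttgtgcttGATGAAGTGGATcagatgtta
DDX39A and DDX39B were the only members with DECD, and DDX21 and DDX50 the only ones with DEVD.

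The defining markers of oocytes were present in all libraries. Of 14 oocyte markers 13 were matched, and their summed level lay between 31222 and 43681 FPKM in the 0h libraries, between 40168 and 49375 FPKM in those of 22h and between 43871 and 48851 FPKM in those of 46h. Much of that sum was BTG4, which stood between 13936 and 17621 FPKM before culture and between 26454 and 30934 FPKM at the end. Of the 13 markers, 2 rose and 9 fell from 0h to 46h, with a median log2 fold change of -1.86. Of 20 cumulus and granulosa cell markers 18 were matched, with sums of 47.3 to 89.1, 56.2 to 86.3 and 118 to 144 FPKM. Most of these sums was VCAN, only VCAN, FST and STAR reached a mean of 1 FPKM, and NR5A1, INHA and COL1A1 were at 0 in all 12 libraries. The mitochondrially encoded share of total FPKM lay between 1.79% and 3.76% in 0h oocytes, between 8.06% and 12.02% in 22h oocytes and between 12.8% and 16.7% in 46h oocytes, and its part in the results below was not tested. The 0h replicate 4 stood apart, with a correlation of 0.934 to 0.970 across genes with the other 0h libraries, and held the highest of the 4 values at 0h in 24 of the 38 members tested. The 0h replicate 2 held the lowest of these values in 22 members.

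Levels spanned more than 3 orders of magnitude within the family. FPKM is already relative to transcript length, so the members can be set beside each other on it. DDX18, a nucleolar helicase of ribosome assembly, had the highest level with a mean of 265.5 FPKM over the 12 libraries. DDX5, a nuclear helicase of transcription and splicing, followed with 119 FPKM, then DDX46 with 63.8, DDX21 with 56.7 and DDX55 with 46.7 FPKM. The 47 members together took 0.133% ± 0.0149 of total FPKM at 0h (SD, n = 4), 0.118% ± 0.0077 at 22h and 0.108% ± 0.0086 at 46h. The 3 ranges overlapped, at 0.116% to 0.152%, 0.108% to 0.127% and 0.101% to 0.12%.

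Most helicases that changed fell, and more falls were called after 22h than by 22h. Between 0h and 22h, 2 members rose and 7 fell, or 5.26% and 18.4% of the 38. Of all genes tested 7.84% rose and 18.9% fell over the same step. From 22h to 46h, 2 members rose and 16 fell, 5.26% and 42.1% of them, against 9.87% and 32.6% of all genes. Over the whole of maturation, 2 rose and 22 fell, 5.26% and 57.9%, against 16.8% and 39.1% of all genes. A change was called at an adjusted p under 0.05 and a fold change over 1.5 in limma on log2(FPKM + 1), and the 3 comparisons share their libraries. The median log2 fold change of the members was -0.09 from 0h to 22h, -0.30 from 22h to 46h and -0.82 from 0h to 46h, beside 0.00, -0.26 and -0.25 for all genes tested.

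These splits depended on the scaling of the libraries, since FPKM is relative to all RNA in a library. With median-of-ratios factors, the median of all genes from 0h to 46h moved from -0.25 to 0.00, and 7 members rose and 17 fell, against 26.9% and 34.1% of all genes. With quantile normalization that median moved to 0.37, and 11 members rose and 11 fell, against 41% and 25.5% of all genes. From 22h to 46h, 4 members rose and 12 fell with median-of-ratios factors, against 19.1% and 26.2% of all genes. With quantile normalization 8 rose and 8 fell, against 28.1% and 19.1% of all genes, and the members' median turned from -0.30 to 0.13. From 0h to 22h the members' counts were 2 and 7 with median-of-ratios factors, where all genes gave 8.28% and 18.9%, and 3 and 7 with quantile normalization, where all genes gave 14.9% and 16.1%. The members' median from 0h to 46h remained under that of all genes in every alternative run. Without the 0h replicate 4, 2 members rose and 20 fell over the whole of maturation, and the shares of all genes called without it are not given here.

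**Figure D1:**
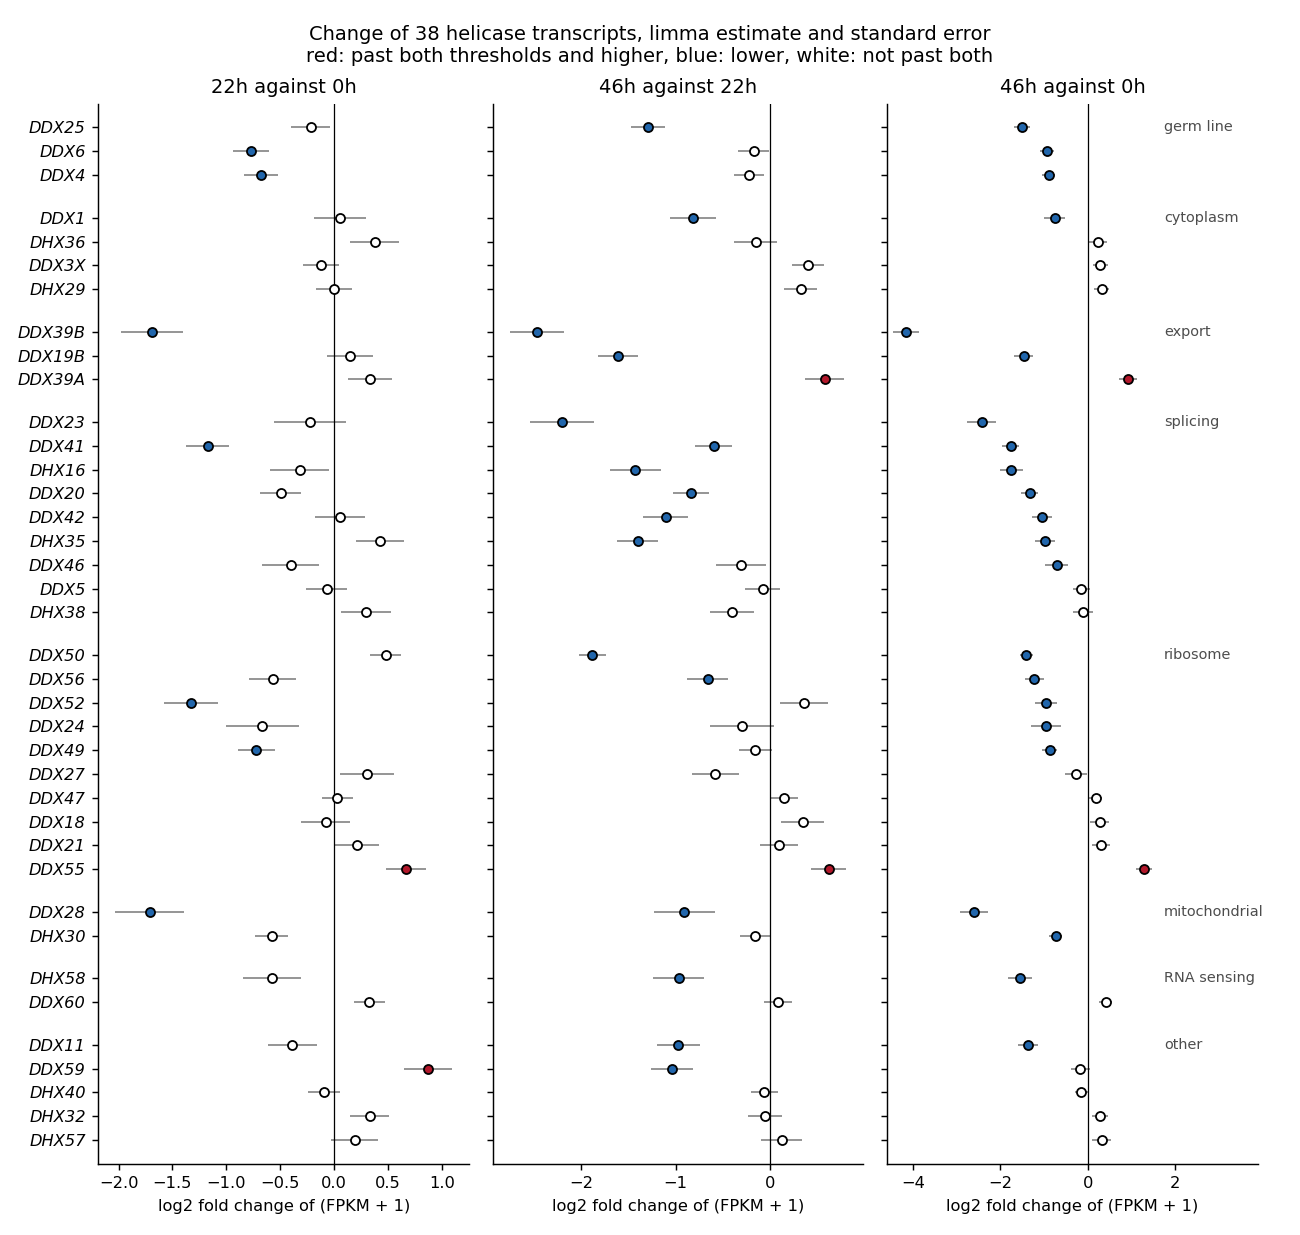
Log2 fold change of (FPKM + 1) of the 38 members tested, with the standard error of the limma fit, by comparison (panels) and role (blocks). Red points were called higher and blue points lower, and white points were not called. With quantile normalization the balance at 46h against 0h turns from 2 higher and 22 lower to 11 higher and 11 lower.

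Of the 38 members, 25 passed in at least 1 comparison and 13 in none. DDX55 rose in both steps. DDX39A rose after 22h, and DDX59 rose and then fell. DDX28, DDX39B and DDX41 fell in both steps, and 4 members fell by 22h without a further call. Another 12 were called lower after 22h and not called by 22h. By 22h the estimates of these 12 ran from -0.58 (DHX58) to 0.48 (DDX50). DDX20 and DDX56 among them were called lower by 22h in some alternatives. DDX24, DDX46 and DHX30 passed both thresholds only over the whole of maturation. These pattern counts describe the members alone, since the shares of all genes with the same patterns are not given here. The order of the sections that follow is by what the helicases do.

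All 3 tested helicases of the germ line and of stored mRNA fell from 0h to 46h, as did 39.1% of all genes. With quantile normalization 1 of the 3 did (25.5% of all genes). DDX4, the vasa helicase of germ granules, was low throughout, at 1.81, 2.43, 2.12 and 2.13 FPKM at 0h, 0.89, 0.93, 1.30 and 0.71 FPKM at 22h and 0.99, 0.80, 0.38 and 0.58 FPKM at 46h. All 4 libraries at 0h lay above all 8 later ones, and the 22h and 46h libraries overlapped. The log2 fold change of DDX4 was -0.68 ± 0.15 (SE) from 0h to 22h (limma adjusted p = 0.00467) and -0.22 ± 0.15 from 22h to 46h (adjusted p = 0.26).

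DDX6, which holds mRNAs in a translationally silent state and takes part in decapping, had the same course at a higher level. It stood at 5.83, 8.13, 6.06 and 5.86 FPKM at 0h, at 4.14, 2.95, 3.85 and 2.61 FPKM at 22h and at 3.25, 2.55, 2.53 and 3.20 FPKM at 46h. The 0h libraries were again above all others, and the later stages overlapped. It fell by 0.77 ± 0.17 on the log2 scale by 22h (limma adjusted p = 0.00308), and from 22h to 46h the estimate was -0.17 ± 0.17 (adjusted p = 0.425). With quantile normalization, the change from 0h to 46h was no longer called for DDX4 (-0.20) and DDX6 (-0.25), and their estimates from 22h to 46h turned to 0.39 and 0.35.

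DDX25, a helicase best known for the handling of stored mRNAs in spermatids, fell later. Its level was 3.07, 3.37, 3.9 and 4.1 FPKM at 0h, 2.86, 1.79, 3.76 and 3.73 FPKM at 22h, and 0.68, 0.42, 0.85 and 0.52 FPKM at 46h. The 0h and 22h libraries overlapped and all 46h libraries were below both. The fall from 22h to 46h was 2.45-fold (log2 -1.29 ± 0.18, limma adjusted p = 4.68e-05), and it was called in every alternative run that tested DDX25.

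**Figure D2:**
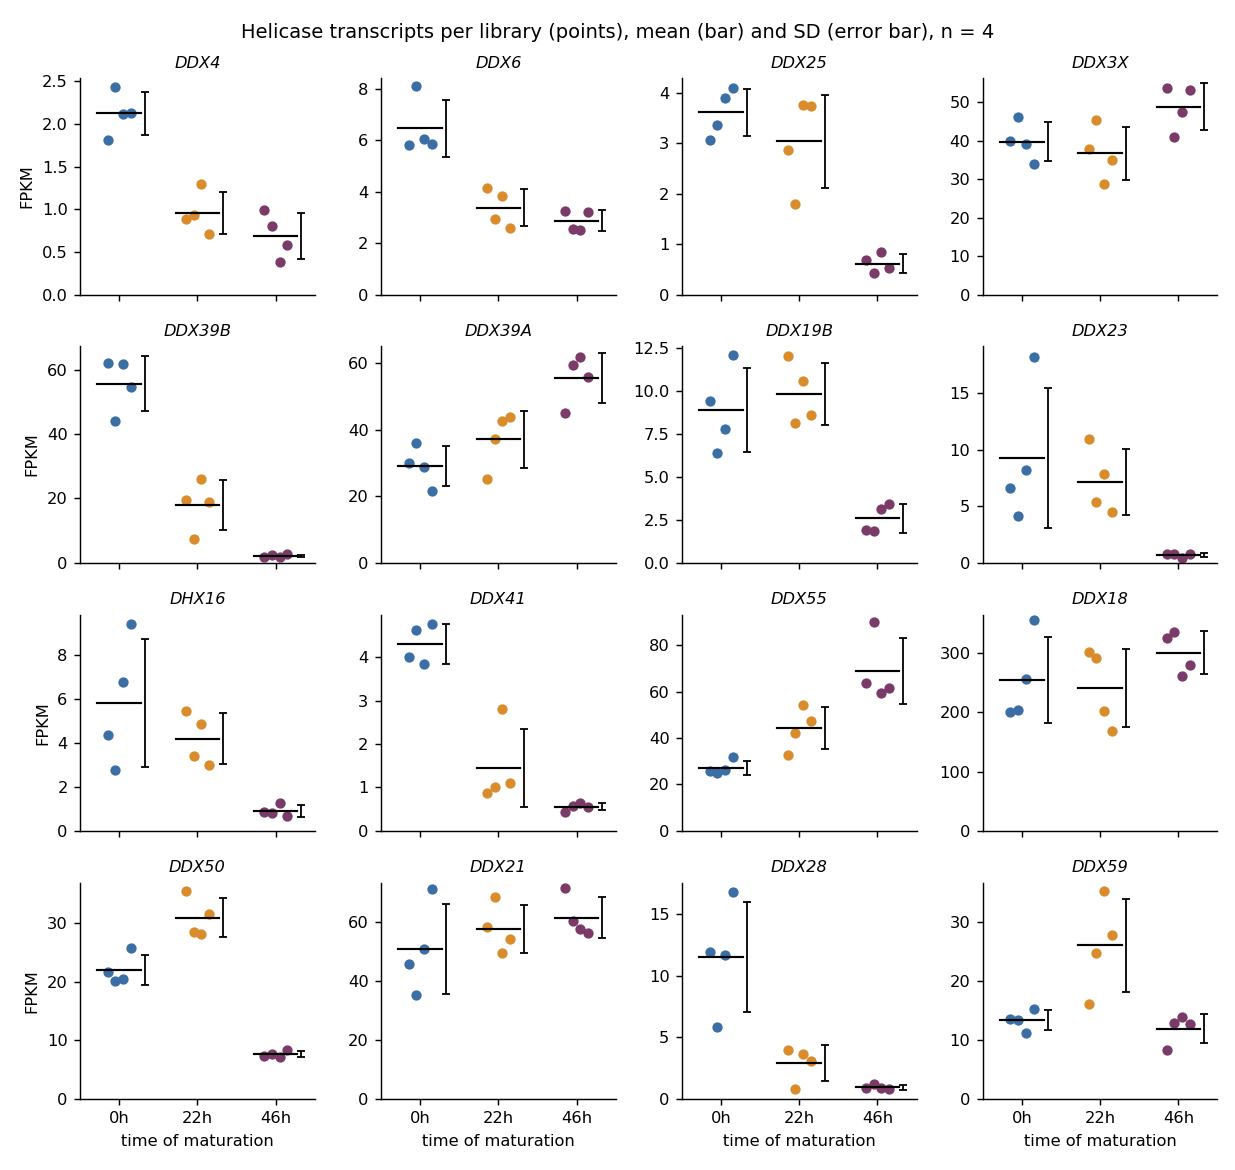
FPKM of 16 members in each of the 12 libraries (points) at 0h, 22h and 46h, with the mean (bar) and SD (error bar) of the 4 libraries. The DDX39B libraries lie between 43.9 and 62.1 FPKM before culture and between 1.79 and 2.60 FPKM at the end, whereas those of DDX3X and DDX18 overlap across stages.

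Of 14 tested genes known to act with DDX6 on stored mRNA, 2 rose and 5 fell from 0h to 46h, beside 16.8% and 39.1% of all genes, with a median log2 fold change of -0.20 beside -0.25. These shares were near those of all genes. ZAR1, an oocyte protein needed for the stability of maternal mRNA, averaged 140.3 ± 60.6 FPKM (SD, n = 4) before culture and 0.703 FPKM at the end of it (log2 -6.30, limma adjusted p = 9.97e-10). YBX2, a germ cell mRNA-binding protein, went from 19.3 to 0.205 FPKM (log2 -3.96). PATL1, a decapping partner of DDX6, rose from 5.24 to 10.4 FPKM (log2 0.87). Among 11 germ granule partners of DDX4, 2 rose and 4 fell, on this scaling again near the shares of all genes (16.8% and 39.1%). Their median log2 fold change was 0.39, beside -0.25 for all genes. The DDX4 partners that fell included GTSF1 (log2 -3.65) and PIWIL3 (log2 -1.72), and those that rose were RNF17 (log2 0.68) and TDRD5 (log2 0.66). With median-of-ratios factors 4 of the 14 DDX6 partners rose and 4 fell, beside 26.9% and 34.1% of all genes. Of the 11 DDX4 partners, 6 rose with these factors, on this scaling a larger share than of all genes, and 4 fell. With quantile normalization 5 of the 11 DDX4 partners rose and 2 fell, beside 41% and 25.5% of all genes. Of the 14 DDX6 partners, 5 then rose and 3 fell.

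Of the 4 tested helicases of translation and mRNA handling in the cytoplasm, none rose and 1 fell from 0h to 46h, beside 16.8% and 39.1% of all genes. With median-of-ratios factors 1 rose and none fell (26.9% and 34.1% of all genes). With quantile normalization DDX3X, DHX29 and DHX36 rose and none fell (41% and 25.5% of all genes). DDX3X, which helps ribosomes start on structured mRNAs, was at 40.0, 46.1, 39.1 and 33.9 FPKM at 0h, 37.8, 45.3, 28.8 and 35.0 FPKM at 22h and 53.8, 40.9, 47.5 and 53.3 FPKM at 46h. The 3 stages overlapped, and its log2 fold change from 0h to 46h was 0.29 ± 0.17 (limma adjusted p = 0.154). That change was called with median-of-ratios factors (0.61) and with quantile normalization (0.79). From 22h to 46h the estimate of DDX3X was 0.41 ± 0.17 (adjusted p = 0.0596), and it was called with the same scalings (0.73 and 0.80). DHX29, a factor of scanning ribosomes, and DHX36, which opens G-quadruplexes, had means of 1.32 and 2.61 FPKM and were not called in any comparison. DDX1, part of the tRNA ligase complex, had means over the successive stages of 21.5 ± 6.98, 21.5 ± 2.83 and 12.01 ± 3.10 FPKM (SD, n = 4). It fell 1.76-fold after 22h (log2 -0.82 ± 0.24, limma adjusted p = 0.0124), and this call was lost with median-of-ratios factors (-0.51) and with quantile normalization (-0.34).

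The mRNA export helicases DDX39A and DDX39B moved in opposite directions. DDX39B, also called UAP56, loads export factors onto spliced mRNA as part of the TREX complex, and DDX39A is its close paralog. DDX39B was at 62.1, 43.9, 61.8 and 54.7 FPKM at 0h. It stood at 19.5, 7.23, 25.9 and 19.0 FPKM at 22h and at 1.83, 2.35, 1.79 and 2.60 FPKM at 46h. No libraries of different stages overlapped. The fall was 3.23-fold by 22h (log2 -1.69 ± 0.29, limma adjusted p = 0.000649), 5.56-fold from 22h to 46h (log2 -2.47 ± 0.29, adjusted p = 7.44e-06) and 18.0-fold over the whole (log2 -4.17 ± 0.29, adjusted p = 1.68e-08), the largest fall of any member. All 3 calls held in every alternative run.

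DDX39A was at 29.9, 35.95, 28.9 and 21.5 FPKM at 0h, 25.1, 37.1, 42.6 and 43.8 FPKM at 22h and 44.9, 59.4, 61.9 and 55.8 FPKM at 46h. The 0h and 22h libraries overlapped, and the 46h libraries were above both. It rose 1.89-fold from 0h to 46h (log2 0.92 ± 0.21, limma adjusted p = 0.00132), a call that held in every alternative run. The step from 22h to 46h was smaller (log2 0.59 ± 0.21, adjusted p = 0.0294). That call was lost without the 22h replicate 1 (0.41) and without the 46h replicates 2 (0.55), 3 (0.53) or 4 (0.58), on the TPM scale (0.50), and, with an unmoved estimate, without a filter on low values.

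Within each library, the ratio of DDX39A to DDX39B turned over. The log2 ratio of their (FPKM + 1) values was -1.03, -0.28, -1.07 and -1.31 at 0h, 0.35, 2.21, 0.69 and 1.16 at 22h and 4.02, 4.17, 4.49 and 3.98 at 46h. DDX39B was thus the higher of both in every 0h library and DDX39A in every later one. The mean ratio was -0.92 ± 0.44 (SD, n = 4), 1.10 ± 0.81 and 4.17 ± 0.23, and each pair of stages differed with p = 0.0286 in an exact two-sided permutation test of 4 against 4 libraries, the smallest p that its 70 arrangements allow. This ratio does not move with a common scaling factor of a library, apart from the pseudocount. The coding sequences are 81.0% identical, with a longest shared run of 41 bases, and how reads were shared between the paralogs was not tested.

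**Figure D3:**
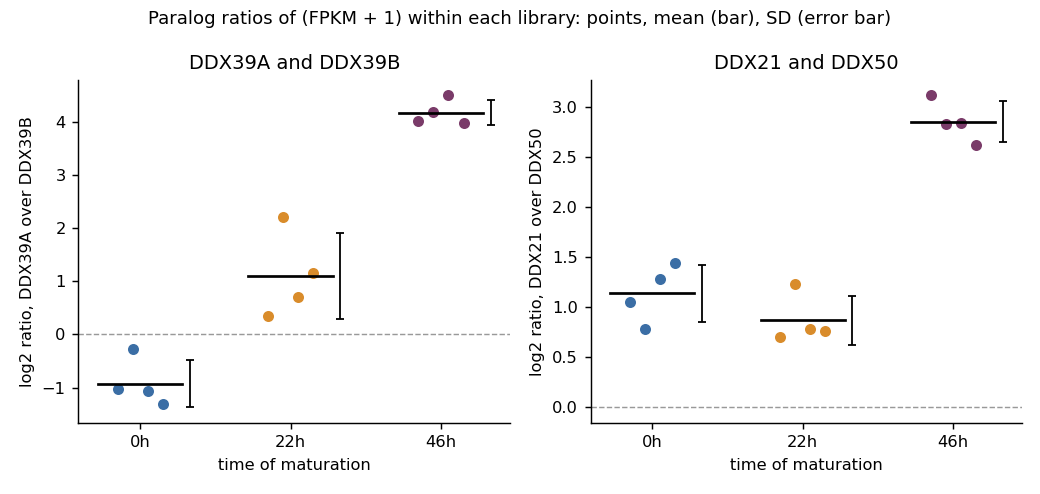
Log2 ratio of (FPKM + 1) of DDX39A over DDX39B (left) and of DDX21 over DDX50 (right) in each library (points), with the mean (bar) and SD (error bar) of the 4 libraries of a stage. The first ratio is under 0 in all 0h libraries and at 3.98 or more at 46h, and the ratio of DDX21 to DDX50 is 2.62 or more at 46h and at most 1.44 before.

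DDX19B, which releases export factors from mRNA at the nuclear pore, was at 9.38, 6.38, 7.78 and 12.1 FPKM at 0h, 12.04, 8.14, 10.5 and 8.60 FPKM at 22h, and 1.91, 1.84, 3.12 and 3.44 FPKM at 46h. The earlier stages overlapped and the 46h libraries were below both. It fell 3.06-fold from 22h to 46h (log2 -1.61 ± 0.21, limma adjusted p = 2.59e-05), in every alternative run. Of 12 tested partners in export, 3 rose and 5 fell from 0h to 46h, beside 16.8% and 39.1% of all genes. Their median log2 fold change of -0.26 was close to the -0.25 of all genes. CHTOP, a TREX subunit, went from 34.7 to 1.2 FPKM (log2 -4.0), and NXF1, the main mRNA export receptor, from 6.26 to 0.525 FPKM (log2 -2.22). The THO subunits THOC7 (log2 1.16) and THOC2 (log2 1.13) rose, whereas THOC5 (log2 -1.81) and THOC1 (log2 -1.47) fell. With quantile normalization the partners' counts became 6 higher and 4 lower, beside 41% and 25.5% of all genes.

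Of the 9 tested helicases of splicing and nuclear transcript processing, 7 fell from 0h to 46h and none rose, beside 39.1% and 16.8% of all genes. With quantile normalization 1 rose and 4 fell, beside 41% and 25.5% of all genes. DDX23, a helicase of the U5 snRNP that acts early in spliceosome activation, was at 6.62, 4.16, 8.20 and 18.3 FPKM at 0h, 10.99, 5.42, 7.85 and 4.45 FPKM at 22h and 0.81, 0.79, 0.44 and 0.75 FPKM at 46h. The highest 46h library was more than 5-fold under the lowest earlier one. The fall from 22h to 46h was 4.62-fold (log2 -2.21 ± 0.34, limma adjusted p = 9.16e-05). From 0h to 22h the estimate was -0.23 ± 0.34 (adjusted p = 0.633), and it turned to 0.13 without the 0h replicate 4.

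DHX16, which drives the last remodelling before the first step of splicing, was at 4.34, 2.74, 6.76 and 9.39 FPKM at 0h, 5.42, 3.40, 4.87 and 3.0 FPKM at 22h and 0.85, 0.80, 1.28 and 0.66 FPKM at 46h. It too was lower in all 46h libraries than in any earlier one, with a fall of 2.69-fold after 22h (log2 -1.43 ± 0.27, limma adjusted p = 0.0006). DDX41, a helicase bound to the late spliceosome, fell earlier. Its libraries were at 4.0, 4.63, 3.84 and 4.77 FPKM at 0h, 0.88, 1.01, 2.80 and 1.11 FPKM at 22h and 0.44, 0.58, 0.65 and 0.55 FPKM at 46h. None of the stages overlapped, although the 22h replicate 3 lay well above the other 22h libraries. DDX41 fell 2.26-fold by 22h (log2 -1.17 ± 0.20, limma adjusted p = 0.000626) and 1.51-fold after it (log2 -0.60 ± 0.20, adjusted p = 0.0234). The later call was lost without the 22h replicate 3 (-0.36) or the 46h replicate 1 (-0.56), with median-of-ratios factors (-0.45, adjusted p = 0.0551) and, with an unmoved estimate, without a filter on low values (adjusted p = 0.0665). With quantile normalization the estimate was 0.0023.

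DDX20, or Gemin3, belongs to the SMN complex that assembles snRNPs. Its means were 10.8 ± 2.63, 7.30 ± 1.36 and 3.63 ± 0.566 FPKM (SD, n = 4), and it fell 2.51-fold from 0h to 46h (log2 -1.33 ± 0.19, limma adjusted p = 2.87e-05). DDX42, a helicase of the U2 snRNP, went from 40.9 ± 14.4 and 41.2 ± 8.38 FPKM to 18.5 ± 3.13 FPKM (log2 -1.11 ± 0.23 after 22h). DHX35, found in late spliceosomes, was at 3.28 ± 0.315, 4.98 ± 1.89 and 1.19 ± 0.38 FPKM and fell 2.65-fold after 22h (log2 -1.40 ± 0.22). Its estimate by 22h was 0.42 ± 0.22 (limma adjusted p = 0.162), called higher with quantile normalization (0.61) and without the 22h replicate 1 (0.64).

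DDX46, which opens the U2 snRNP for branch site binding, was at 64.6, 59.2, 78.5 and 126.5 FPKM at 0h and 51.9, 69.96, 31.5 and 44.7 FPKM at 46h. These libraries overlapped, with 0h replicate 4 highest. The call from 0h to 46h (log2 -0.71 ± 0.27, limma adjusted p = 0.031) was lost without that library (-0.48, adjusted p = 0.0901), without 0h replicate 3 (-0.71, adjusted p = 0.0578) and without 46h replicates 3 (-0.52) or 4 (-0.68). It was also lost with median-of-ratios factors (-0.39, adjusted p = 0.186), with quantile normalization (-0.28, adjusted p = 0.37) and with the replicate number as a block (adjusted p = 0.0586). With an unmoved estimate it was lost without a filter on low values (limma adjusted p = 0.0661) and with only the 2 groups compared (adjusted p = 0.0503). DDX5 and DHX38, a helicase of the second step of splicing, were not called, although DHX38 passed as higher from 0h to 46h with quantile normalization (0.59). DDX5 was at 171.2, 122.3, 116.3 and 96.5 FPKM at 0h and at 93.7, 121.0, 125.0 and 111.2 FPKM at 46h, in overlapping ranges, with a log2 fold change of -0.14 ± 0.19 (limma adjusted p = 0.531) that turned to 0.18 with median-of-ratios factors.

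Among 13 tested helicases close to the family but outside the naming rule, 2 rose and 4 fell from 0h to 46h, shares no higher than the 16.8% and 39.1% of all genes. The spliceosomal helicase SNRNP200 (log2 -1.14), the exosome cofactor MTREX (log2 -2.23), the exon junction helicase EIF4A3 (log2 -1.16) and the translation initiation helicase EIF4A1 (log2 -0.65) fell. The mitochondrial RNA helicase SUPV3L1 (log2 1.07) and the DNA repair helicase HELQ (log2 0.93) rose. With quantile normalization 6 rose and 1 fell, beside 41% and 25.5% of all genes. Of 8 exon junction complex genes none rose and 2 fell, EIF4A3 and SAP18 (log2 -0.995), beside 16.8% and 39.1% of all genes. With median-of-ratios factors 2 rose and 2 fell, beside 26.9% and 34.1% of all genes. Of 11 G-patch cofactors, which switch DEAH helicases on, GPATCH1 rose (log2 0.73) and GPATCH11 fell, from 287.6 to 56.0 FPKM (log2 -2.28), beside 16.8% of all genes higher and 39.1% lower. With median-of-ratios factors 2 rose and 1 fell (26.9% and 34.1% of all genes), and with quantile normalization 4 rose and 1 fell (41% and 25.5%).

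Of 10 tested helicases of ribosome assembly, 1 rose and 5 fell from 0h to 46h, beside 16.8% and 39.1% of all genes. With median-of-ratios factors 3 rose and 3 fell (26.9% and 34.1% of all genes). With quantile normalization 3 rose and 1 fell (41% and 25.5% of all genes). The riser was DDX55, which works on the precursor of the large ribosomal subunit. Its libraries were at 25.8, 24.8, 26.2 and 31.7 FPKM at 0h, 32.8, 42.2, 54.5 and 47.4 FPKM at 22h and 63.8, 90.01, 59.6 and 61.8 FPKM at 46h. No stages overlapped, and the lowest 22h library was next to the highest 0h library.

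DDX55 rose 2.46-fold over the whole of maturation (log2 1.30 ± 0.19, limma adjusted p = 3.02e-05), a call held in every alternative run. The steps were smaller, with a log2 fold change of 0.67 ± 0.19 by 22h (adjusted p = 0.0148) and 0.63 ± 0.19 after it (adjusted p = 0.0125). The step to 22h fell under the fold threshold without the 22h replicate 3 (0.56). The step after 22h did so without the 22h replicate 1 or the 46h replicate 2 (0.50 in both cases) and on the TPM scale (0.54).

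DDX21 and DDX50 are nucleolar paralogs that lie side by side on chromosome 14, 8988 bases apart. DDX50 was at 21.6, 20.1, 20.4 and 25.7 FPKM at 0h, 35.6, 28.6, 28.3 and 31.6 FPKM at 22h and 7.38, 7.64, 7.19 and 8.36 FPKM at 46h. No stages overlapped. All 22h libraries were the highest, and those at 46h were under the rest. The rise to 22h had an adjusted p of 0.0204 in limma but stayed under the fold threshold (log2 0.48 ± 0.14). The fall after 22h was 3.69-fold (log2 -1.89 ± 0.14, limma adjusted p = 9.56e-08).

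DDX21 was at 46.0, 35.2, 51.0 and 71.5 FPKM at 0h, 58.5, 68.5, 49.5 and 54.3 FPKM at 22h and 71.8, 60.6, 57.7 and 56.4 FPKM at 46h, with all stages overlapping. Its log2 fold change from 22h to 46h was 0.10 ± 0.20 (limma adjusted p = 0.715). From 0h to 46h the estimate was 0.31 ± 0.20 (adjusted p = 0.194), and it was called with median-of-ratios factors (0.63) and with quantile normalization (0.76). The log2 ratio of DDX21 to DDX50 was 1.14 ± 0.29 (SD, n = 4) at 0h, 0.87 ± 0.24 at 22h and 2.85 ± 0.21 at 46h. It differed between 46h and each earlier stage with p = 0.0286 in the exact two-sided permutation test, and not between 0h and 22h (exact p = 0.2). The coding sequences are 69.5% identical with a longest shared run of 20 bases.

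DDX52, needed for early cleavages of the small subunit precursor, fell by 22h. It was at 54.7, 61.3, 40.9 and 25.97 FPKM at 0h, 15.4, 15.2, 17.2 and 19.5 FPKM at 22h and 24.9, 27.4, 15.01 and 22.3 FPKM at 46h. All 22h libraries were under those at 0h, and those at 46h overlapped with both stages. It fell 2.51-fold by 22h (log2 -1.33 ± 0.25, limma adjusted p = 0.00132), and the estimate after 22h was 0.37 ± 0.25 (adjusted p = 0.245), which was called with quantile normalization (0.83). The call over the whole of maturation (log2 -0.96 ± 0.25) was lost with median-of-ratios factors (-0.64) and with quantile normalization (-0.38). DDX49, a helicase of the small subunit precursor, fell from 2.13 ± 0.553 to 0.89 ± 0.302 FPKM by 22h (log2 -0.72 ± 0.17), and its change from 0h to 46h was not called with quantile normalization (-0.19).

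DDX56, a nucleolar helicase of large subunit assembly, had means of 1.92 ± 0.511, 1.02 ± 0.61 and 0.235 ± 0.15 FPKM. It fell from 0h to 46h (log2 -1.23 ± 0.22, limma adjusted p = 0.000197), and this was under the fold threshold with quantile normalization (-0.46). The call from 22h to 46h (log2 -0.66 ± 0.22, adjusted p = 0.0219) was lost without the 22h replicate 3 (-0.50) or 4 (-0.60) and without the 46h replicate 2 (-0.59). It was also lost with median-of-ratios factors (-0.56), with quantile normalization (-0.044) and, with an unmoved estimate, without a filter on low values. DDX24, another nucleolar helicase, was at 28.6, 22.8, 42.7 and 86.1 FPKM at 0h and 21.4, 20.3, 18.6 and 19.0 FPKM at 46h. The stages did not overlap, and the highest 0h value was that of replicate 4. The call (log2 -0.96 ± 0.34, limma adjusted p = 0.0248) was lost without it (-0.59, adjusted p = 0.0642), without 0h replicate 3 (-0.92) and without 46h replicates 3 (-0.93) or 4 (-0.94). It was lost too with median-of-ratios factors (-0.64, adjusted p = 0.0743) and with quantile normalization (-0.45, adjusted p = 0.25). With an unmoved estimate it was lost without a filter on low values (limma adjusted p = 0.0623).

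DDX18 was at 199.95, 204.7, 257.2 and 356.1 FPKM at 0h, 301.7, 291.2, 202.2 and 169.2 FPKM at 22h and 326.0, 336.4, 261.4 and 280.3 FPKM at 46h. The stages overlapped, and its log2 fold change from 0h to 46h was 0.27 ± 0.23 (limma adjusted p = 0.31). With median-of-ratios factors DDX18 was called higher from 0h to 46h (0.60) and from 22h to 46h (0.67). DDX27 and DDX47, both nucleolar, were at means of 4.33 and 8.20 FPKM over the 12 libraries and were not called. DDX47 passed as higher from 0h to 46h with quantile normalization (0.84), and DDX27 as lower from 22h to 46h on the TPM scale (-0.68). Of 29 other genes of ribosome assembly tested, 4 rose and 17 fell from 0h to 46h, beside 16.8% and 39.1% of all genes, with a median log2 fold change of -0.86 beside -0.25. GNL3, or nucleostemin, went from 9.99 to 0.263 FPKM (log2 -3.12), and NOP2, an rRNA methyltransferase, from 12.8 to 0.22 FPKM (log2 -3.49). NPM1, a histone and ribosome chaperone of the nucleolus, rose from 1064 to 1617 FPKM (log2 0.61). With quantile normalization 7 of the 29 rose and 10 fell, beside 41% and 25.5% of all genes.

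Both tested members that act on mitochondrial RNA fell from 0h to 46h, as did 39.1% of all genes. With median-of-ratios factors or quantile normalization 1 of them did (34.1% and 25.5% of all genes). SUPV3L1, the mitochondrial RNA helicase outside the naming rule, rose (log2 1.07). The mitochondrially encoded share of the libraries was highest at 46h. DDX28, which takes part in mitochondrial ribosome assembly, was at 11.9, 5.83, 11.6 and 16.8 FPKM at 0h, 3.99, 0.80, 3.67 and 3.09 FPKM at 22h and 0.90, 1.22, 0.87 and 0.77 FPKM at 46h. The 0h libraries were above all others, and the later stages overlapped through the 22h replicate 2. DDX28 fell 3.28-fold by 22h (log2 -1.71 ± 0.32, limma adjusted p = 0.0012) and 6.13-fold over the whole (log2 -2.62 ± 0.32, adjusted p = 5.98e-06). The call from 22h to 46h (log2 -0.90 ± 0.32, adjusted p = 0.03) was lost without the 22h replicates 1, 3 or 4 and without the 46h replicates 1, 3 or 4, with estimates of -0.75 to -0.90. It was lost as well with quantile normalization (-0.38) and, with an unmoved estimate, without a filter on low values.

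DHX30, which also acts in the mitochondrial ribosome, had means of 3.35 ± 0.505, 1.91 ± 0.364 and 1.62 ± 0.361 FPKM. All its 22h libraries were under those at 0h, with an estimate just under the fold threshold (log2 -0.58 ± 0.16, limma adjusted p = 0.0121) that was called lower in 8 alternatives, 5 of which left out a library. It fell 1.67-fold from 0h to 46h (log2 -0.74 ± 0.16, limma adjusted p = 0.000906), and this was under the fold threshold with median-of-ratios factors (-0.51) and with quantile normalization (-0.06).

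Of the 2 tested members that act against foreign RNA, DHX58, or LGP2, fell from 0h to 46h and DDX60 was not called. Of all genes 39.1% fell and 16.8% rose. DHX58 was at 6.63, 5.78, 8.84 and 12.9 FPKM at 0h, 6.41, 3.49, 6.69 and 4.56 FPKM at 22h and 1.46, 1.34, 3.40 and 2.84 FPKM at 46h. The 46h libraries were under all others, the closest being 3.40 against 3.49 FPKM at 22h. DHX58 had a log2 fold change of -1.55 ± 0.27 from 0h to 46h (limma adjusted p = 0.000183). DDX60, an antiviral helicase, had a mean of 2.0 FPKM and all 46h libraries above those of 0h. Its log2 fold change over the whole was 0.42 ± 0.15 (limma adjusted p = 0.0225), under the fold threshold, and it was called higher with median-of-ratios factors (0.64), with quantile normalization (1.13) and with a pseudocount of 0.1 (0.62). RIGI, the sensor formerly named DDX58, averaged 5.27 ± 1.22, 5.01 ± 1.17 and 5.05 ± 1.14 FPKM (SD, n = 4) and was not called (log2 -0.05 ± 0.20 from 0h to 46h, limma adjusted p = 0.83).

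DDX11, a DNA helicase of sister chromatid cohesion that shares the family name, had means of 3.29 ± 1.37, 2.24 ± 0.886 and 0.61 ± 0.0876 FPKM. All 46h libraries were under all others, and it fell 1.96-fold after 22h (log2 -0.97 ± 0.23, limma adjusted p = 0.00315). That call was lost with quantile normalization (-0.43, adjusted p = 0.0509). DDX59 was called in opposite directions in the consecutive steps. It was at 13.5, 13.4, 11.2 and 15.3 FPKM at 0h, 16.2, 24.8, 35.4 and 27.9 FPKM at 22h and 8.25, 12.8, 14.0 and 12.7 FPKM at 46h. The 22h libraries lay above all others, and 0h and 46h overlapped. It rose 1.83-fold (log2 0.87 ± 0.22, limma adjusted p = 0.00946) and then fell 2.05-fold (log2 -1.04 ± 0.22, adjusted p = 0.00163). With quantile normalization the fall missed the fold threshold (-0.56), and DHX35 and DDX52 were the members called in opposite directions. DHX32, DHX40 and DHX57 had means of 6.52, 7.04 and 5.92 FPKM and were not called in any comparison. From 0h to 46h, DHX57 was called higher with median-of-ratios factors (0.60) and, like DHX32 (0.95), with quantile normalization (0.98).

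The 9 members under a mean of 1 FPKM were DDX31, DDX51, DDX54, DHX8, DHX9, DHX15, DHX33, DHX34 and DHX37. None was at 0 in every library. All 9 were compared between each pair of stages by an exact two-sided permutation test of 4 against 4 libraries, without adjustment for the number of tests. Only DHX8, which frees mRNA from the spliceosome, had stages that did not overlap. It was at 0.51, 0.56, 0.70 and 0.57 FPKM at 22h and 0.44, 0.46, 0.34 and 0.43 FPKM at 46h. The exact p was 0.0286, the smallest that the permutation test allows, and no other of these tests reached it. DHX9 and DHX15, which are abundant nuclear proteins in many somatic cells, had means of 0.298 and 0.508 FPKM here.

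The 3′ ends of the transcripts were read for the letters of the cytoplasmic polyadenylation element (CPE). In oocytes, CPEB bound to this element can hold an mRNA silent with a short poly(A) tail or lengthen the tail during maturation. The letters TTTTAT or TTTTAAT were searched on the transcript strand in the last 200 bases of RefSeq 3′ UTRs of at least that length, which 32 of the 38 members tested had. They were present in 13 of the 32 (40.6%) and in 36.7% of the 4828 genes tested with such a 3′ UTR. Among the members that fell from 0h to 46h, 3 of 18 (16.7%) held the letters, against 9 of 12 (75.0%) not called and 1 of 2 that rose. For all genes the shares were 26.7%, 40.1% and 47.4%. The sites below are those of the 3 members that fell, of DDX39A, which rose, and of DDX18, DDX21 and DDX3X, abundant members not called here but called higher with median-of-ratios factors. Capitals mark the CPE letters.
DDX19B, chr6:13356922-13356943, plus strand: ataaacaatggaTTTTATtggt
DDX25, chr9:53043923-53043952, plus strand: ttgaaggtaattTTTTATgttgagcctttt
DDX50, chr14:72030959-72030988, plus strand: aaaaaaacctccTTTTATtgtctcttttca
DDX39A, chr2:64844798-64844827, plus strand: gtaagaataaatTTTTATtatggaagccag
DDX18, chr15:23442877-23442906, plus strand: tttgtgtacattTTTTATcagaatgaagtg
DDX21, chr14:72063642-72063671, plus strand: aatacaatcaatTTTTATgttggaactatc
DDX3X, chrX:37005392-37005421, plus strand: tgcatattctgaTTTTATtaaaataaaaag
DDX39B and DDX55 had no such letters in this window. In these 200 bases DDX39A and DDX39B thus differed, whereas DDX21 and DDX50 both held the letters. In the last 100 bases neither DDX39A nor DDX39B held them, and DDX50 did but DDX21 did not.

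The split by call moved with the settings, and no test was made of it. With a window of 100 bases the letters were in 2 of 18 members that fell and 5 of 12 not called, beside 16.7% and 25.3% of all genes. That window held them in 0 of 2 members that rose, beside 30.9% of all genes. With calls from median-of-ratios factors they were in 3 of 15 that fell, 4 of 10 not called and 6 of 7 that rose, beside 25.4%, 38.4% and 46.0% of all genes. With calls from quantile normalization they were in 3 of 10 that fell, 2 of 11 not called and 8 of 11 that rose, beside 26.5%, 32.5% and 44.8% of all genes. A match of letters is no evidence of a working element. Each gene was read from its RefSeq transcript with the longest coding sequence. Poly(A) signal letters (AATAAA or ATTAAA) lay in the last 50 bases of 13 of 18 members that fell (71.2% of all genes). They lay in 12 of 12 not called (80.5%) and 1 of 2 that rose (82.6%). DDX19B, DDX39A and DDX39B had none, and the DDX19B transcript stops at 13356943 in a gene ending at 13358139. Whether oocytes use these annotated ends was not tested. The GC content of the transcripts had a median of 49.7% in the 22 members that fell, 44.3% in those not called and 50.1% in the 2 that rose, beside 49.8%, 46.0% and 43.8% of all genes, and its part in the result was not tested.

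**Figure D4:**
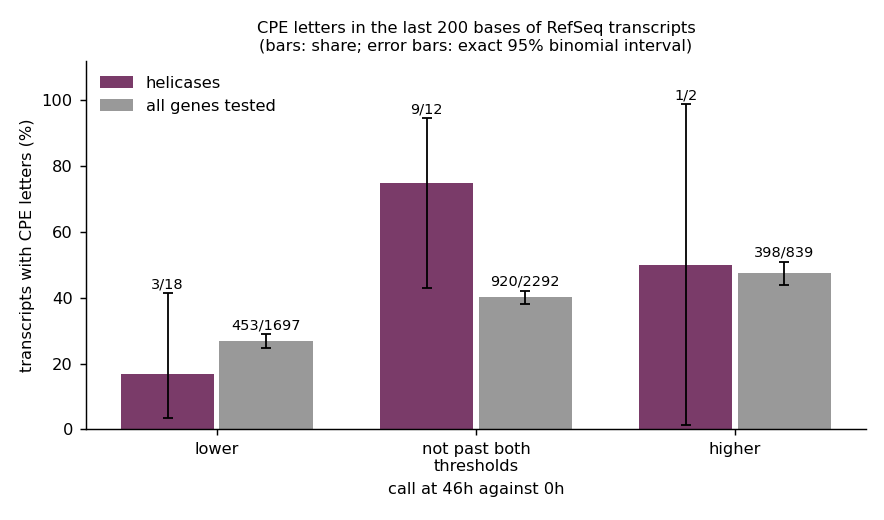
Share of transcripts with CPE letters in the last 200 bases (bars) by call from 0h to 46h, for the helicases and for all genes tested, with exact binomial 95% intervals that cover counting only, and counts above them. The share is 16.7% of the helicases that fell and 75.0% of those not called, and the not-called share is 18.2% with calls from quantile normalization.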

How the data were processed

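Oocytes at 0h, 22h and 46h of maturation gave 12 libraries, 4 per stage, grouped by their treatment labels. The authors trimmed the reads, aligned them to Sscrofa11 with STAR and quantified genes with RSEM, and deposited FPKM values, that is fragments relative to transcript length and library. The study's own test used counts, which were not used here, so the depth is unknown and only the spread of the 4 libraries gives the precision. Symbols came from the reference gene table. The members and lists were chosen with earlier results of these data known.

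Values were taken as log2(FPKM + 1), so fold changes of low genes are understated. Genes that averaged 1 FPKM or more were fitted with limma 3.58.1 in R 4.3.3 (trend, stage as the only factor, all 12 libraries), two-sided with Benjamini-Hochberg adjustment over all 7013 genes. A gene was called at an adjusted p under 0.05 and a fold change over 1.5. The fit was tested on simulated data, and the outcome is not given here. Members under the filter and paralog ratios were compared by an exact permutation test. Members named with values are those called, the 5 most abundant, DDX4, DDX6, DDX3X and the close paralogs, and the rest are given by level. Sequences, positions and GC content came from RefSeq on Sscrofa11.1, read with Python 3.11.15, for all 47 members. The files hold no coordinates.

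The alternatives were a pseudocount of 0.1, no filter, a minimum average of 5 FPKM, scaling by median-of-ratios factors, quantiles or TPM, TPM without mitochondrially encoded genes, only the groups compared, no trend, a replicate block, no fold threshold, and each library left out.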

Additional observations from a re-analysis of the deposited data

Results flagged for a closer look

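In 4 of 60 member and stage groups examined, 1 of the 4 libraries lay further from the rest than Dixon's 95% critical ratio allows, and chance gives about 1 in 20. DDX23 at 46h was 0.44 FPKM in replicate 3, against 0.75 to 0.81 FPKM in the others. DDX41 at 22h was 2.80 FPKM in replicate 3, against 0.88 to 1.11 FPKM. DDX55 at 46h was 90.01 FPKM in replicate 2, against 59.6 to 63.8 FPKM. DDX6 at 0h was 8.13 FPKM in replicate 2, against 5.83 to 6.06 FPKM. The 4 values fall in 3 different stages. The calls of DDX23 and DDX6 held without these libraries, and those that DDX41 and DDX55 lost are given above.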

How the results depend on the processing

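Of the 51 member calls over the 3 comparisons, 29 held in every alternative that tested the member, and 22 were lost in at least 1. The estimate of DDX41 from 22h to 46h changed sign with quantile normalization (0.0023). Not every alternative could lose a call, since dropping the fold threshold only relaxes the rule. Leaving out a library of the stage not compared left the estimate unmoved. Members averaging under 5 FPKM were not tested with that filter. Of the 63 estimates not called, 23 were called in at least 1 alternative, 19 higher and 4 lower. The causes were not tested.

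With a mean of at least 5 FPKM, which tests 23 members, 3 fell by 22h, 10 after it and 12 from 0h to 46h. The shares of all genes called with this filter, with no filter and on the TPM scale are not given here, so these counts describe the members alone. From 22h to 46h, 1 member rose with no filter, 4 with median-of-ratios factors, 8 with quantile normalization and 0 on the TPM scale, and 8 fell with quantile normalization. The members' median was then -0.17 with no filter, -0.042 with median-of-ratios factors and 0.13 with quantile normalization, and its distance to all genes -0.14 with no filter. From 0h to 46h, 7 rose with median-of-ratios factors and 11 with quantile normalization, where 11 fell. The median was -0.33 with no filter, -0.57 with median-of-ratios factors and -0.19 with quantile normalization, and its distance to all genes -0.68 with a pseudocount of 0.1 and -0.29 with no filter.

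Leaving out each library, 1 to 3 members rose and 7 to 9 fell by 22h, 0 to 2 rose and 13 to 16 fell after it, and 2 rose and 20 to 22 fell overall. The members' medians ran from -0.14 to -0.05, -0.46 to -0.24 and -0.88 to -0.76, and the distances to all genes from -0.14 to -0.05, -0.19 to 0.045 and -0.65 to -0.48. The estimate from 0h to 22h ran from -0.20 to 0.10 for DDX18, from -0.50 to 0.13 for DDX23 and from -0.19 to 0.087 for DDX5, and for DDX5 from -0.14 to 0.0097 after 22h and -0.26 to 0.011 overall.

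Of the 63 estimates not called, 24 changed sign in at least 1 alternative, 8 from 0h to 22h, 11 from 22h to 46h and 5 from 0h to 46h. Among those to 22h were DDX18 (0.040 with quantile normalization, 0.0033 with TPM without mitochondrially encoded genes) and DDX5 (0.054 and 0.014). Those after 22h included DDX4 (0.39) and, with median-of-ratios factors and quantile normalization, DDX46 (0.010 and 0.046), DDX5 (0.24 and 0.15) and DDX6 (0.078 and 0.35). Those over the whole included DDX5 (0.18 and 0.21), DDX59 (0.14 and 0.44) and DHX38 (0.13 and 0.59).

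Over all stages, libraries with the same replicate number did not deviate together (r from -0.466 to 0.381, 3 of 12 pairs over 0.1), and 7 of 24 correlated best with their own number. The pairs over 0.1 all lay between 22h and 46h (0.381, 0.211 and 0.127 for replicates 1, 3 and 4, and 0.009 for replicate 2). With the replicate block, 2 members rose and 7 fell by 22h, 2 and 16 after it, and 2 and 21 from 0h to 46h. The shares of all genes called with the block are not given here. Without read counts, the depth limits of low members are unknown.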
